A study of Mus musculus with 34 samples.

Results

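The genes that mark or direct the fate of T cells, here Tox, Tcf7, Lef1, Eomes, Tbx21, Id2, Id3, Prdm1, Bach2 and Slamf6, were followed in T cells from mouse mammary tumours after doxorubicin and checkpoint blockade. They were taken by name, 10 of the 32285 gene rows of the single-cell matrices, and all 10 were found. The tumours were MMTV-Wnt1 tumours, in which the mammary tumour virus promoter drives Wnt1 in the mammary epithelium, transplanted into C57BL6j hosts that kept their own immune cells. Of the series, 10 libraries of magnetically sorted cells were used. CD45, the common surface marker of immune cells, was the sort of 4 of them, 2 from doxorubicin-treated and 2 from untreated mice. The other 6 were sorted on CD4 and CD8 and hold 1 library for each group.

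Doxorubicin, a topoisomerase poison used as chemotherapy, was given at 4 mg/kg in 5 consecutive doses. The doxorubicin libraries of both sorts came from tumours taken 48 h after the last dose. In the antibody groups the first antibody dose followed the same course by 48 h, and 3 doses were given 72 h apart, with harvest 24 h after the last one. The groups received 200 µg anti-PD1 with 200 µg control IgG, 200 µg anti-CTLA4 with 200 µg control IgG, 200 µg of each antibody, or 400 µg control IgG. The untreated groups received no drug and no antibody. All antibody groups, the IgG group included, carried the doxorubicin course, so blockade without chemotherapy was not measured. The age of these hosts is not given in the sources used here. The labels do not say whether the paired CD45 replicates came from separate animals, so p-values measure only the spread between these samples.

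T cells that meet antigen for a short time become effector or memory cells, whereas those kept in contact with antigen, as in tumours, pass into exhaustion. A stem-like pool that keeps TCF1, the product of Tcf7, renews the exhausted cells and is known to respond to PD1 blockade. Lef1 encodes the closest relative of TCF1, and Bach2 a repressor that holds back effector genes. Id2 and Id3 encode proteins that bind E-protein transcription factors and keep them off DNA. Id3 is typical of naive and memory-precursor cells and Id2 of effector cells. Slamf6 is not a transcription factor: it encodes a surface receptor of the SLAM family that is used to sort stem-like exhausted cells. Tox encodes a factor that exhausted cells need in order to persist, and Prdm1 encodes BLIMP1, a transcriptional repressor that promotes terminal differentiation. Tbx21, which encodes T-bet, and Eomes are related T-box factors of effector and memory CD8 cells.

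On the GRCm38.p6 assembly the early and stem-like genes lie at chr11:52246527-52283383 (Tcf7), chr3:131110297-131224357 (Lef1), chr4:136143822-136145392 (Id3), chr4:32238413-32586109 (Bach2) and chr1:171917458-171948958 (Slamf6). The genes of later states lie at chr4:6686353-6991557 (Tox), chr10:44437174-44528558 (Prdm1), chr12:25093799-25096092 (Id2), chr11:97098007-97115331 (Tbx21) and chr9:118478186-118486132 (Eomes). The measured values are counts per whole gene, so no exon or isoform is told apart.

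The Id pair and the T-box pair are shown as sequence, because in each pair the relatives differed in opposite directions between CD8 cells with and without Pdcd1 transcripts, as described further on. The RefSeq table held a promoter for 9 of the 10 genes, all but Tox. Printed are the 250 bases before each gene's start in that promoter table (GRCm38.p6), 5′ to 3′ on the gene's strand: chr12:25096093-25096342 on the minus strand for Id2, chr4:136143572-136143821 on the plus strand for Id3, chr11:97115332-97115581 on the minus strand for Tbx21 and chr9:118477939-118478188 on the plus strand for Eomes. The start used there for Eomes lies just inside the gene span given above, so the last bases of its window fall in that span. Capitals mark an E-box.
Id2: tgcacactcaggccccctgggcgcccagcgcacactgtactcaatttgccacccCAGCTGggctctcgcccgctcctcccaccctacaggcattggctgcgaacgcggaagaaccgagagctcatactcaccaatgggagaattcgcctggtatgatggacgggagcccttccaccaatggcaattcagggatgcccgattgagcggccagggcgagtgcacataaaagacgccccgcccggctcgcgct
Id3: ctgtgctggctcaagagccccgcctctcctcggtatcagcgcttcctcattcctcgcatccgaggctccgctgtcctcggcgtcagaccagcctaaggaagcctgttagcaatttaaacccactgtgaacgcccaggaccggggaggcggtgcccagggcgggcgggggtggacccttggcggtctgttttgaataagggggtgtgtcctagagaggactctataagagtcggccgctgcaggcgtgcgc
Tbx21: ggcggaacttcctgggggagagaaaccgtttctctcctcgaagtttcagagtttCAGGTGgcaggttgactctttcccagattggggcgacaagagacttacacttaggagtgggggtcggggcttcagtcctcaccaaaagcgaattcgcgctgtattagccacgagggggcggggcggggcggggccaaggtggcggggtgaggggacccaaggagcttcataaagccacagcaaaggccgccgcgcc
Eomes: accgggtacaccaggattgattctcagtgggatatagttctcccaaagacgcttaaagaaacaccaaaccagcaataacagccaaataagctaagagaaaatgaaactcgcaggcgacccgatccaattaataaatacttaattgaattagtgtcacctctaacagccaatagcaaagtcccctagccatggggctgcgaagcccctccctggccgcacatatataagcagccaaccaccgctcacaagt
Both strands were searched for CTTTGA (the TCF and LEF core), AGGTGT (the T-box core), CANNTG (the E-box that E-proteins read) and TGANTCA (the AP-1 and BACH core). The Id2 and Tbx21 windows each held 1 E-box, at 196 to 191 bases before the start, and neither overlapped another motif. The Id3 and Eomes windows held none of the 4 motifs. Among 32817 promoter windows of that length 66.2% held CANNTG, 13.8% CTTTGA, 11.8% AGGTGT and 6.75% TGANTCA. A match of letters is a description and not a binding site.

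The 10 libraries held 16908180 to 93748407 unique molecular identifiers each (UMIs, 1 for each captured transcript), in 42370 barcodes. T cells were gated on 2 or more UMIs of Cd3d, Cd3e and Cd3g with at most 2 UMIs of 10 genes of other lineages, and then on Cd8a and Cd8b1 or on Cd4. None of these gating genes belongs to the 10 studied. The gates gave 13307 CD8 cells (49 to 2457 per library) and 2777 CD4 cells (21 to 674). Their median depth was 6223 to 11024.5 UMIs per CD8 cell and 4345 to 9527 per CD4 cell. Cells with UMIs of both Cd4 and Cd8 genes made up 2.44 to 6.12% of T cells and were left out. The files used here hold no barcode sequences, so shared barcodes could not be counted. No cell profile was identical between any of the 45 pairs of libraries.

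Each gene was measured against gates that should lack T cell transcripts, with every cell thinned to 2000 UMIs. Tox had a UMI in 16.7% of CD8 cells and 26.2% of CD4 cells, against 0.141% of macrophage-gated and 0.235% of epithelial-gated cells. Tcf7 was found in 8.50% of CD8 and 5.49% of CD4 cells, with 0.165% of macrophage-gated but 3.47% of epithelial-gated cells. Lef1 (8.15% of CD8 cells), Eomes (7.09%) and Tbx21 (7.51%) had UMIs in at most 0.157% of macrophage-gated or epithelial-gated cells. These 3 genes and Tox were thus close to absent from those gates. Id2 had a UMI in 55.9% of CD8 and 66.3% of CD4 cells, and also in 58.4% of macrophage-gated and 43.8% of epithelial-gated cells. Id3, in 4.27% of CD8 and 2.60% of CD4 cells, was found in 7.56% of macrophage-gated and 11% of epithelial-gated cells. Prdm1, in 3.65% of CD8 and 6.84% of CD4 cells, was found in 12% of macrophage-gated cells. Bach2 (3.19% of CD8 cells) reached 3.88% of epithelial-gated cells, and Slamf6 (3.92% of CD8 cells) reached 3.39% of macrophage-gated cells. The gated macrophages had median depths of 6507 to 16202 UMIs and the gated epithelial cells 12629 to 37300. For these 5 genes and Tcf7 a single UMI in a T cell could also come from free RNA, and that share was not measured.

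Levels are given as UMIs per 10000 UMIs of the gated cells of a library. In bulk sums of this kind, fewer expressing cells and less RNA per cell cannot be told apart. Levels of different genes were not compared, since 3′ capture differs between genes. In CD8 cells Tcf7 stood at 1.05 and 0.615 in the CD45 doxorubicin libraries and 0.661 and 0.220 in the CD45 untreated ones. Among the CD4/8-sorted libraries it stood at 0.378 after anti-PD1, 0.359 after anti-CTLA4, 0.415 after both antibodies, 0.542 after IgG, 0.613 at 48 h after doxorubicin and 0.555 in untreated tumours. The 3 blockade libraries were thus the lowest of the 6. Lef1 was lowest in the same 3 libraries: 0.360, 0.346 and 0.316 after anti-PD1, anti-CTLA4 and both, against 0.544 after IgG, 0.670 at 48 h after doxorubicin and 0.714 in untreated tumours. In the CD45 libraries Lef1 was at 0.554 and 0.187 after doxorubicin and 0.512 and 0.164 untreated, so the replicates of each group lay farther apart than the groups did.

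Tox in CD8 cells measured 1.02 and 1.49 in the CD45 doxorubicin libraries and 0.650 and 1.31 in the untreated ones. In the CD4/8-sorted libraries it measured 0.599 after anti-PD1, 1.10 after anti-CTLA4, 1.10 after both, 1.04 after IgG, 1.30 at 48 h after doxorubicin and 0.625 untreated. The anti-PD1 and untreated libraries were the 2 lowest. Id2 stood at 6.44 after anti-PD1, 8.78 after anti-CTLA4, 8.82 after both, 7.47 after IgG, 5.17 at 48 h after doxorubicin and 3.24 in untreated tumours, the lowest of all 10 libraries. Its CD45 values were 6.74 and 7.97 after doxorubicin and 4.78 and 7.15 untreated, which overlap. Eomes in CD8 cells was at 0.809 and 0.535 in the CD45 doxorubicin libraries and 0.451 and 0.173 in the untreated ones. In the CD4/8 sort it was at 0.315, 0.337 and 0.328 after anti-PD1, anti-CTLA4 and both, against 0.563 after IgG, 0.505 at 48 h after doxorubicin and 0.489 untreated. Its 3 blockade values lay close together and below the other 3 libraries of that sort. Tbx21, the other T-box gene, spanned 0.217 (untreated, CD4/8 sort) to 0.645 (untreated, CD45 sort) in CD8 cells, so its extremes were both untreated. Over all 10 libraries Id3 spanned 0.0701 to 0.358, Prdm1 0.0985 to 0.361, Bach2 0.0972 to 0.25 and Slamf6 0.107 to 0.308.

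**Figure D1:**
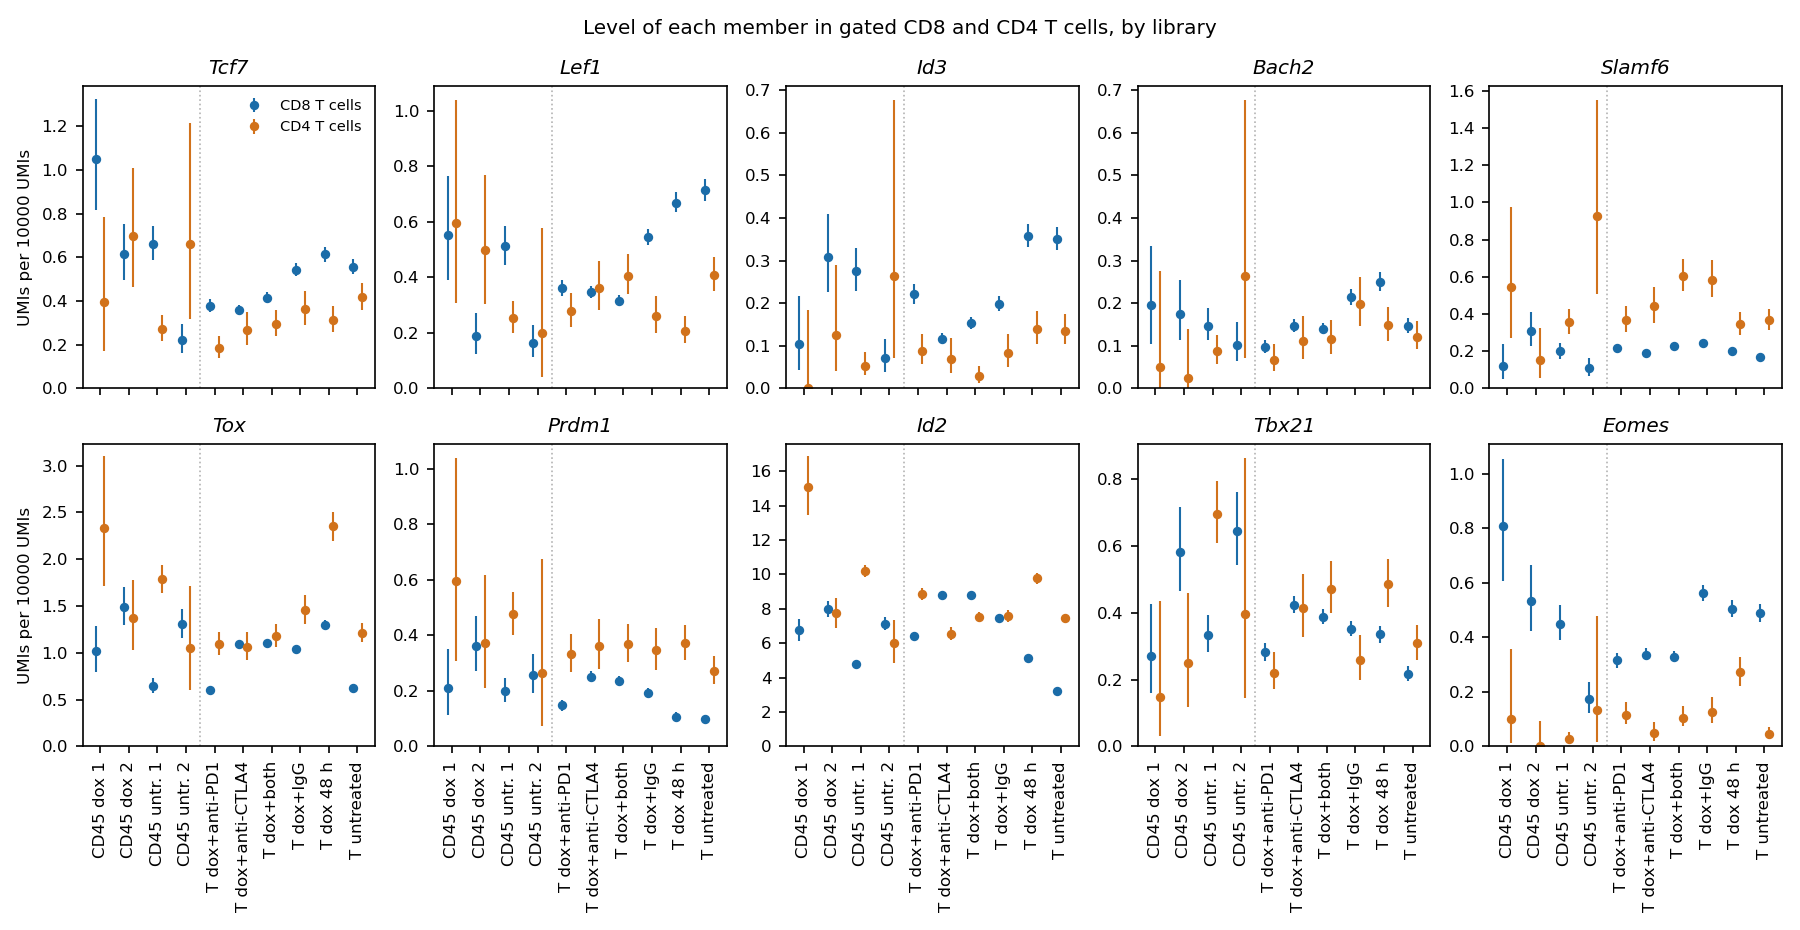
UMIs per 10000 UMIs of gated CD8 (blue) and CD4 (orange) T cells, one panel per gene and one point per library, with exact Poisson 95% intervals for counting error. "dox" is doxorubicin and "untr." untreated; the 4 CD45-sorted libraries are on the left and the 6 CD4/8-sorted ones on the right. Eomes in CD8 cells lies between 0.315 and 0.337 in the 3 blockade libraries and at 0.563 in the IgG library.

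Between lineages Eomes, Id3 and Tcf7 were higher in CD8 cells and Prdm1 and Slamf6 in CD4 cells. CD8 and CD4 cells of the same library were compared over all 10 libraries, with library as a block (edgeR quasi-likelihood test, Benjamini-Hochberg adjustment over 11239 genes). Of all genes 34% were called at an adjusted p under 0.05, 17% higher and 17.1% lower in CD8 cells, and of the 10 studied genes 4 were higher and 3 lower. Eomes averaged 0.451 ± 0.175 in CD8 cells and 0.0977 ± 0.0761 in CD4 cells (SD, n = 10 each), a log2 difference of 2.29 ± 0.31 (SE, adjusted p = 2.5e-04), higher in CD8 cells of 10 of 10 libraries. Id3 was higher in CD8 cells by 1.66 ± 0.18 (adjusted p = 9.2e-07, 9 of 10 libraries) and Tcf7 by 0.82 ± 0.16 (adjusted p = 0.0014, 8 of 10). Bach2 was also higher, by 0.63 ± 0.14 (adjusted p = 8.5e-04, 9 of 10), but only 0.12 (adjusted p = 0.74) once every cell was thinned to 2000 UMIs.

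Prdm1 went the other way, with 0.206 ± 0.0779 in CD8 cells and 0.376 ± 0.0969 in CD4 cells, a log2 difference of -0.86 ± 0.12 (edgeR adjusted p = 1.5e-05) and lower in CD8 cells of 10 of 10 libraries. Slamf6 was lower in CD8 cells by the same test, with a log2 difference of -0.92 ± 0.17 (adjusted p = 9.7e-04, 9 of 10 libraries). Tox was at -0.43 ± 0.15 (adjusted p = 0.0496) and lower in CD8 cells of 7 of 10 libraries; 9 alternative analyses lost that call, 6 of them by leaving out CD45 doxorubicin 1, CD45 untreated 1 or the untreated, 48 h, IgG or anti-PD1 library of the CD4/8 sort (adjusted p = 0.065 to 0.11). Lef1 (0.70 ± 0.26, adjusted p = 0.065; 0.030 and 0.033 without CD45 doxorubicin 2 or the library of both antibodies), Tbx21 (0.02, adjusted p = 0.95) and Id2 (-0.24, adjusted p = 0.38) were not called. Beside them, 5 of 10 early or stem-like genes were higher and 2 lower in CD8 cells, with a median log2 difference of 0.55 against 0.03 over all genes. Of 11 effector genes tested 7 were higher and 2 lower, led by the chemokine Ccl5 at 2.45 ± 0.33 (adjusted p = 3.0e-04). None of 8 cell-division genes was called.

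All 10 genes separated CD8 cells with a Pdcd1 UMI from those without. Pdcd1 encodes PD1, the receptor that anti-PD1 blocks, and is transcribed in activated and exhausted cells. In the 9 libraries with 20 or more cells on each side, edgeR called 41.8% of 12341 genes, 21.9% higher and 19.9% lower, and all 10 studied here, 4 higher and 6 lower. Tox had 0.780, 1.29 and 2.03 (lowest, median, highest) in Pdcd1-detected sums, against 0.393, 0.544 and 0.759 in Pdcd1-undetected sums. The log2 difference was 1.07 ± 0.07 (edgeR adjusted p = 1.8e-10, higher in 9 of 9 libraries). The Tox ranges did not overlap, but the share of all genes separated in this way was not computed, so nothing is read from it. Prdm1 was higher by 0.83 ± 0.09 (adjusted p = 4.1e-07, 9 of 9), Tbx21 by 0.52 ± 0.08 (adjusted p = 2.1e-05, 9 of 9) and Id2 by 0.88 ± 0.17 (adjusted p = 0.0032, 8 of 9).

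The early and stem-like genes were all lower in Pdcd1-detected CD8 cells. Lef1 had 0.0595, 0.190 and 0.281 (lowest, median, highest) in Pdcd1-detected sums, against 0.183, 0.824 and 0.987 in Pdcd1-undetected sums, a log2 difference of -2.16 ± 0.20 (edgeR adjusted p = 3.0e-05, lower in 8 of 9 libraries). Id3 differed by -1.95 ± 0.14 (adjusted p = 1.9e-07, 9 of 9), Tcf7 by -1.60 ± 0.23 (adjusted p = 6.6e-04, 9 of 9) and Bach2 by -1.49 ± 0.20 (adjusted p = 1.7e-04, 8 of 9). Slamf6 differed least of this group, by -0.72 ± 0.12 (adjusted p = 1.8e-04, 8 of 9). Eomes was lower too, by -1.0 ± 0.13 (adjusted p = 6.1e-05, 9 of 9), opposite in sign to its relative Tbx21, as Id3 was to Id2; no test of a difference between genes was made. None of the alternative analyses that gave a value ended any of these 10 calls.

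Other genes of the same programmes moved with them in that comparison. Of 10 early or stem-like genes 8 were lower and 1 higher (median log2 difference -1.09, against -0.0010 over all genes): Satb1, a chromatin organiser of naive T cells, was at -1.63 ± 0.19 (adjusted p = 1.2e-04), Cd28, the costimulatory receptor, at -0.23 ± 0.06 (adjusted p = 0.0055) and the chemokine Xcl1 at 0.94 ± 0.23 (adjusted p = 0.011). Of 12 exhaustion genes other than Pdcd1 itself 10 were higher and none lower, with a median of 0.88. Rgs16, a regulator of G-protein signalling, was at 1.34 ± 0.10 (adjusted p = 6.7e-08) and the nuclear receptor Nr4a2 at 0.58 ± 0.08 (adjusted p = 7.0e-06). Of 11 effector genes 6 were higher, Gzma (granzyme A) at 1.25 ± 0.39 (adjusted p = 0.032) and Nkg7 at 0.49 ± 0.07 (adjusted p = 1.1e-05), while Ccl5 was at -0.09 (adjusted p = 0.69). Of 8 cell-division genes 7 were higher, including Top2a (0.80 ± 0.15, adjusted p = 0.0021) and Mki67 (0.83 ± 0.20, adjusted p = 0.0085). Cells with a Pdcd1 UMI were also deeper, at 9862 to 18797 mean UMIs per library against 6079 to 11646 without one. With cells thinned to 2000 UMIs and Pdcd1 detection taken again, all 10 calls stood although calls over all genes dropped to 1055.

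In CD4 cells without Foxp3 UMIs the same split gave 8 calls among the 10 genes, where edgeR called 17% of 8408 genes (7 libraries), 8.05% higher and 8.98% lower; 3 of the 10 were higher and 5 lower. Foxp3 is the defining factor of regulatory T cells. Tcf7 ran 0.116, 0.175 and 0.309 (lowest, median, highest) in Pdcd1-detected sums, against 0.334, 0.650 and 0.992 in Pdcd1-undetected sums, with no overlap and a log2 difference of -1.98 ± 0.15 (adjusted p = 7.7e-10). Id3 ran 0.0154, 0.0289 and 0.0438 against 0.0581, 0.181 and 0.317, again apart, at -2.66 ± 0.28 (edgeR adjusted p = 9.4e-08). The share of all genes with ranges apart was not computed, so nothing is read from the gap for either gene. Bach2 (-1.32 ± 0.22, adjusted p = 1.0e-04), Lef1 (-1.04 ± 0.23, adjusted p = 0.0078) and Slamf6 (-0.52 ± 0.16, adjusted p = 0.025) were lower. Id2 (0.55 ± 0.08, adjusted p = 1.2e-04), Prdm1 (0.50 ± 0.16, adjusted p = 0.034) and Tox (0.30 ± 0.09, adjusted p = 0.021) were higher. Eomes (0.16, adjusted p = 0.69) and Tbx21 (0.27, adjusted p = 0.22) were not called in CD4 cells; whether their differences depart from those in CD8 cells was not tested.

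Several of these CD4 calls were lost in alternative analyses. Thinning to 2000 UMIs put Prdm1 at -0.01 (adjusted p = 0.99) and ended the call for Bach2 (adjusted p = 0.21), and requiring 2 Cd4 UMIs ended it for Bach2 (adjusted p = 0.11) and Id2 (adjusted p = 0.056). Slamf6, Prdm1 and Tox each lost the call without one of several libraries: the untreated library for all 3 (adjusted p = 0.066, 0.062 and 0.054), the 48 h library for Slamf6 (0.10), that of both antibodies for Slamf6 and Prdm1 (0.13 and 0.12), the IgG and anti-CTLA4 libraries for Prdm1 (0.086 and 0.12) and Tox (0.057 and 0.082), and CD45 untreated 1 for Prdm1 (0.062). Pdcd1-detected cells were deeper here too, at 6436 to 12677 mean UMIs against 4545 to 9300. Of 9 early or stem-like genes 5 were lower and none higher, and of 11 exhaustion genes other than Pdcd1 6 were higher and none lower.

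**Figure D2:**
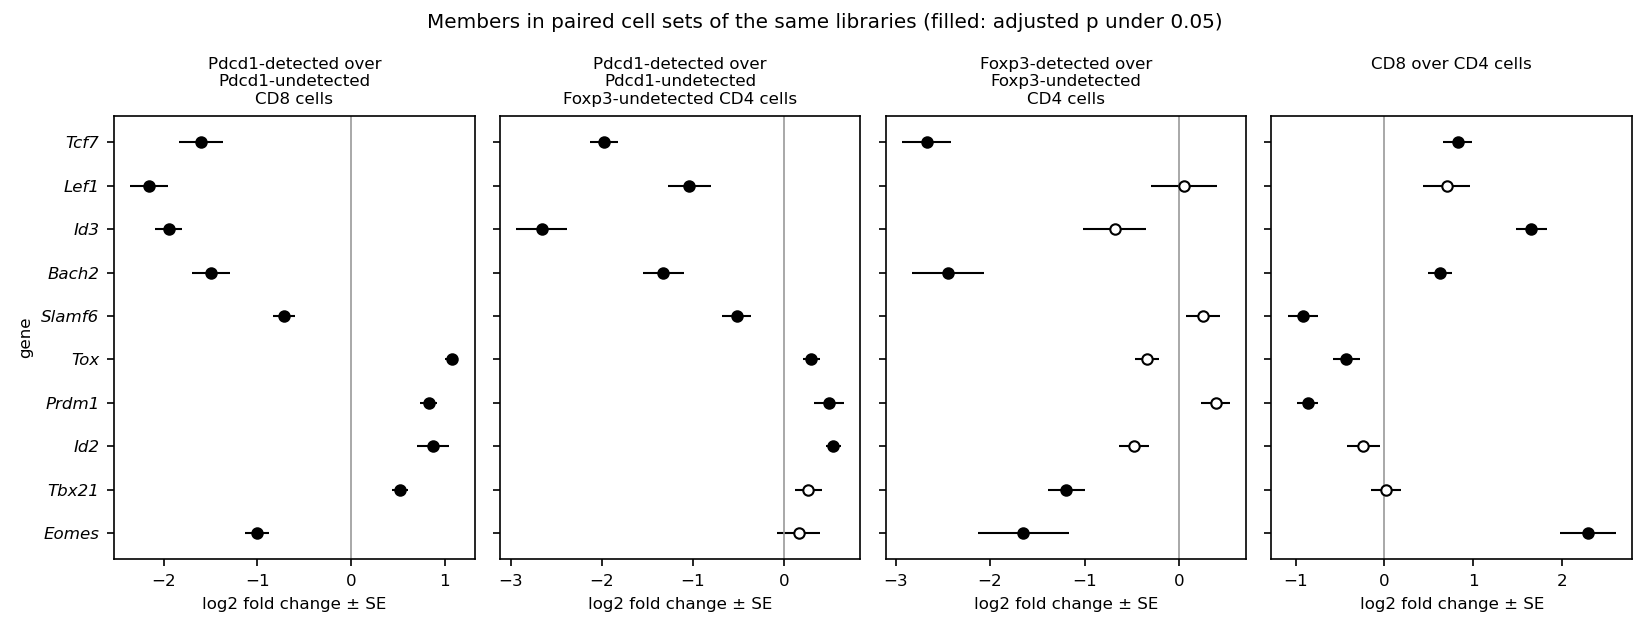
Log2 differences with their SE for the 10 genes in the 4 within-library comparisons (edgeR, library as block): CD8 minus CD4, Foxp3-detected minus undetected CD4, and Pdcd1-detected minus undetected in CD8 and in Foxp3-undetected CD4 cells. Filled points have an adjusted p under 0.05; in the Pdcd1 comparison of CD8 cells all 10 are filled, 4 to the right of 0 and 6 to the left.

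Cells with a Foxp3 UMI, the regulatory-type CD4 cells, had little Tcf7 and Bach2. In the 6 libraries with 20 or more such cells edgeR called 19.4% of 9283 genes, 9.58% lower, and 4 of the 10, all lower. Tcf7 ran 0.0220, 0.0604 and 0.167 (lowest, median, highest) in Foxp3-detected sums, against 0.255, 0.332 and 0.588 in Foxp3-undetected sums, a log2 difference of -2.67 ± 0.26 (adjusted p = 1.1e-08). Bach2 had a mean of 0.0289 ± 0.0263 in Foxp3-detected and 0.154 ± 0.0681 in Foxp3-undetected sums (SD, n = 6), at -2.44 ± 0.38 (adjusted p = 2.3e-05). For both genes the ranges did not overlap, but the share of all genes separated in this way was not computed, so nothing is read from it. Tbx21 was lower in 6 of 6 libraries (-1.19 ± 0.20, adjusted p = 6.2e-05), a call lost with no UMI of another lineage allowed (adjusted p = 0.065) or at 2000 UMIs (adjusted p = 0.34). Eomes was at -1.65 ± 0.48 (adjusted p = 0.023), a call lost without the untreated, 48 h, IgG or anti-PD1 library (adjusted p = 0.055 to 0.085). Lef1, the relative of Tcf7, was at 0.05 (adjusted p = 0.95), with 0.334 ± 0.153 in Foxp3-detected and 0.306 ± 0.111 in Foxp3-undetected sums. Prdm1 was at 0.39 (adjusted p = 0.071), higher in 5 of 6, Tox at -0.34 (adjusted p = 0.064) and Id2 at -0.48 (adjusted p = 0.092). These 3 passed the test in some alternatives: Prdm1 (adjusted p = 0.033) and Tox (0.0017) without the library of both antibodies, and Id2 without the untreated (0.029) or IgG (0.037) library. Id3 (-0.68, adjusted p = 0.17) and Slamf6 (0.25, adjusted p = 0.38) were not called either. Of 11 effector genes 7 were lower and 2 higher in the Foxp3-detected cells.

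Within single CD8 cells the genes fell into groups that were found together and groups that were found apart. Each of 13161 CD8 cells was thinned to 2000 UMIs, and for each pair of genes the odds of finding both were summarised over all 10 libraries by a Mantel-Haenszel odds ratio. Cells of one library are not replicates, so this is a description with no test. Of 45 pairs 23 lay on 1 side of 1 in all 6 CD4/8-sorted libraries, 14 above and 9 below (18 pairs at 1000 UMIs per cell, and 25 at 3000, 11 above and 14 below). The share among pairs of other genes was not computed, so the count is not read as a trait of these genes. Tcf7 and Lef1 were found together in 183 cells where 94.6 would follow from their separate frequencies, an odds ratio of 2.36 (1.5 to 3.48 over those 6 libraries). Tcf7 also went with Bach2 (2.05), Slamf6 (1.89), Id3 (1.71) and Eomes (1.52), and Lef1 with Bach2 (1.90) and Id3 (1.80). On the other side, Id2 and Prdm1 were together in 360 cells where 279 would follow (2.27), and Tox and Id2 in 1516 against 1238 (1.95). Tox with Prdm1 (1.64), Tbx21 with Id2 (1.66) and Tox with Tbx21 (1.25) were in the same group. Tbx21 with Prdm1 was at 1.22, not on 1 side of 1 in all 6 libraries, and at 0.76 at 1000 UMIs per cell.

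Pairs across these groups were found less often than their frequencies give. Tox and Lef1 shared 72 cells where 179 would follow (odds ratio 0.34), and Tox and Tcf7 shared 98 where 188 would follow (0.45). Id2 was found apart from Lef1 (0.38), Tcf7 (0.40) and Id3 (0.57), and Tcf7 apart from Prdm1 (0.44). The T-box relatives Eomes and Tbx21 were at 0.66. Of marker genes outside the list, Pdcd1 was found apart from Lef1 (0.27), Tcf7 (0.32), Id3 (0.38) and Bach2 (0.41), and with Tox (1.91) and Id2 (2.18). Havcr2, which encodes the late exhaustion receptor TIM3, had an odds ratio of 0.16 with Tcf7 and 3.49 with Id2. In 2734 CD4 cells 11 of 45 pairs lay on 1 side of 1 in all 6 CD4/8-sorted libraries (17 at 1000 UMIs per cell, and 17 with 2 Cd4 UMIs required). Here too the share among pairs of other genes was not computed. Tcf7 with Slamf6 was at an odds ratio of 3.45 with 31 cells where 12.3 would follow, and Tcf7 with Pdcd1 stood at 0.29.

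**Figure D3:**
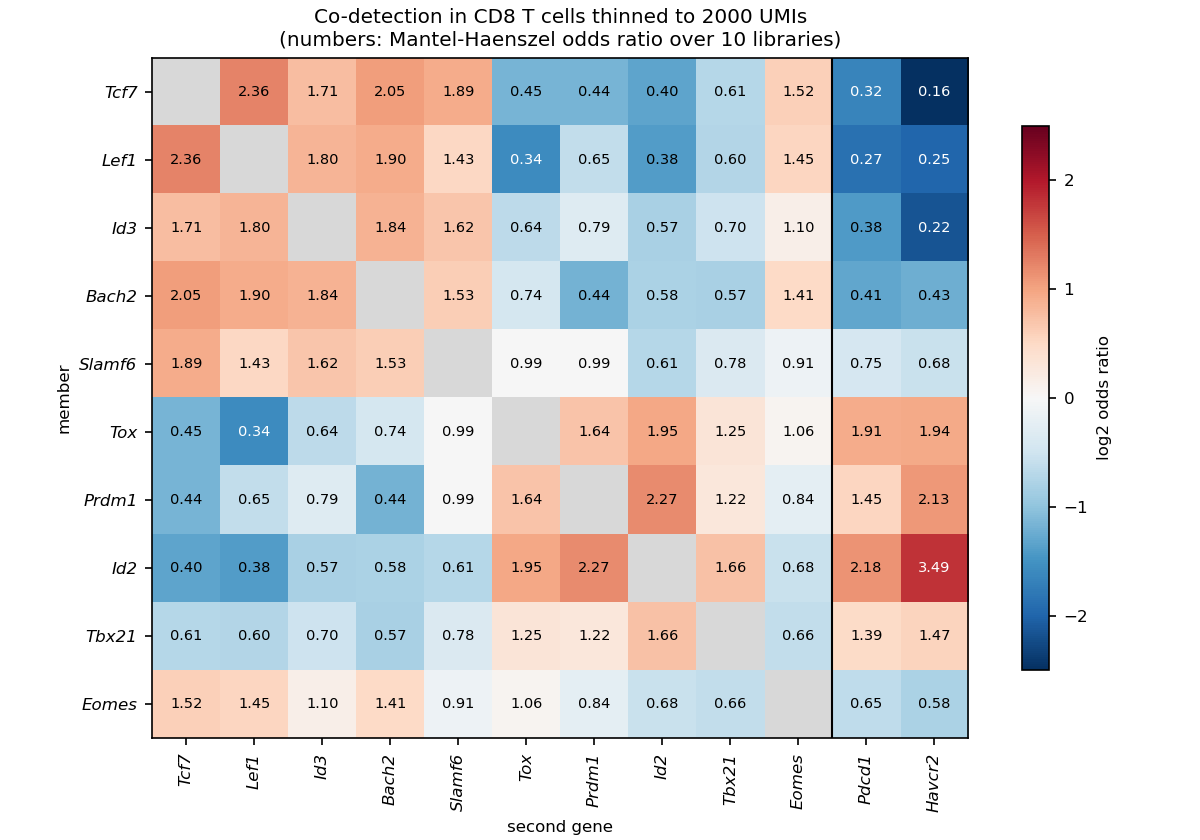
Mantel-Haenszel odds ratios of co-detection in CD8 cells thinned to 2000 UMIs, for pairs of the 10 genes and for each with Pdcd1 and Havcr2, over 10 libraries; colour runs from below 1 (found apart) to above 1 (found together). Tcf7, Lef1, Id3 and Bach2 form one block and Tox, Prdm1, Id2 and Tbx21 another, with Tox and Lef1 at 0.34 between the blocks. Within the latter block Tbx21 with Prdm1 is at 1.22, a pair that fell to 0.76 at 1000 UMIs per cell.

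CD8 cells with both Tcf7 and Pdcd1 UMIs, a combination used to define stem-like exhausted cells, were rare. At 2000 UMIs they made up 0.471% of CD8 cells after anti-PD1, 0.706% after anti-CTLA4, 1.29% after both, 0.549% after IgG, 0.904% at 48 h after doxorubicin and 0.269% in untreated tumours. These shares are those of the CD4/8-sorted libraries. The exact binomial 95% interval was 0.870 to 1.83% after both antibodies and 0.284 to 0.956% after IgG, so those intervals overlap, and each library is a single sample. In the CD45-sorted libraries the share was 0 and 1.16% after doxorubicin and 1.32 and 0.625% untreated. Untreated tumours were thus lowest only within the CD4/8 sort. Cells with Tcf7 and no Pdcd1 UMI made up 6.22, 6.59 and 6.56% after anti-PD1, anti-CTLA4 and both, against 8.50% after IgG, 9.49% at 48 h after doxorubicin and 9.14% in untreated tumours. In the CD45-sorted libraries they made up 8.70 and 8.14% after doxorubicin and 11.2 and 1.875% untreated. At this depth a cell with 0 UMIs of a gene may still express it.

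Over the 6 CD4/8-sorted libraries the 92 Tcf7-Pdcd1 double-detected cells carried Tox in 20.3% on average (0 to 50% over the libraries), against 25.1% of 2663 cells with Pdcd1 alone and 8.00% of 965 cells with Tcf7 alone. The untreated library holds only 4 double-detected cells, and without it the 3 averages were 14.3, 25.5 and 8.57%. Slamf6 was found in 8.29% of the double-detected cells, 6.93% of Tcf7-alone cells and 2.99% of Pdcd1-alone cells. Lef1 was found in 5.28, 17.2 and 2.76% of those same classes. Gzmb (granzyme B) was found in 30.7% of double-detected, 17.1% of Tcf7-alone and 39.4% of Pdcd1-alone cells, but in 16.8, 16.0 and 35.0% without the untreated library, where all 4 double-detected cells had it. Havcr2 was found in 5.31, 1.02 and 11.8% of the classes in the same order. The double-detected class is small, and these averages over libraries carry no test.

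**Figure D4:**
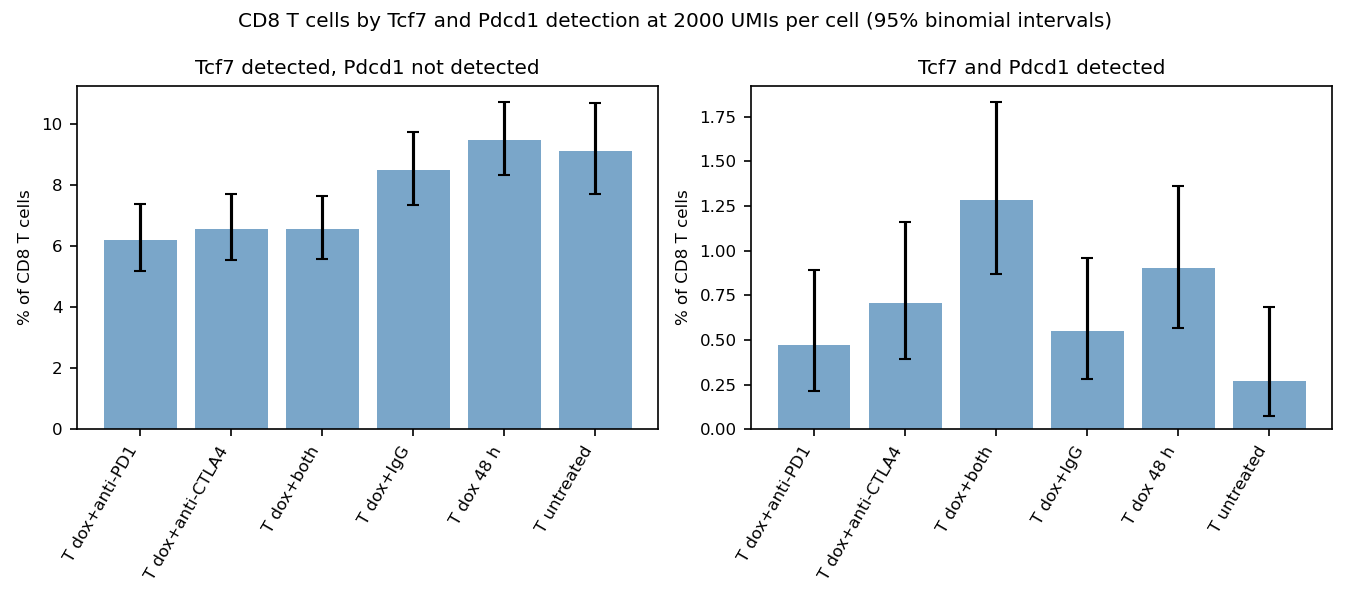
Percent of CD8 cells, thinned to 2000 UMIs, that had a Tcf7 UMI without Pdcd1 and with Pdcd1 in the 6 CD4/8-sorted libraries; bars start at 0 and whiskers are exact binomial 95% intervals for counting error. Among these 6 libraries the share with both is highest after both antibodies (1.29%) and lowest in the untreated one (0.269%), with 1 library each. The CD45-sorted untreated libraries, not drawn, were at 1.32 and 0.625%.

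For the question of what doxorubicin alone did, the treated and untreated T cells taken 48 h after the last dose were compared over 3 against 3 libraries, with the sort as a term (edgeR). In CD8 cells 0.0297% of 10101 genes were called (3 genes; 1274 had an unadjusted p under 0.05, and DESeq2 called 208), and none of the 10 genes was among them. Eomes averaged 0.616 ± 0.168 after doxorubicin and 0.371 ± 0.173 untreated (SD, n = 3 each), and Bach2 0.206 ± 0.0392 and 0.132 ± 0.0253. For these 2 genes the 3 treated libraries all lay above the 3 untreated ones. The share of all genes separated in this way was not computed, so nothing is read from it. Neither gene passed the edgeR test (log2 difference 0.48 ± 0.43, adjusted p = 0.70, and 0.46 ± 0.26, adjusted p = 0.52). Tox averaged 1.27 ± 0.237 after doxorubicin and 0.861 ± 0.387 untreated, with overlapping ranges and a difference of 0.47 ± 0.26 (adjusted p = 0.51). Tcf7 (0.42 ± 0.48), Id2 (0.28 ± 0.19), Slamf6 (0.22 ± 0.33) and Lef1 (-0.22 ± 0.57) had adjusted p of 0.58 to 0.93 and overlapping ranges. Of 9 early, 13 exhaustion and 11 effector genes tested none was called.

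In CD4 cells the same comparison called 0.224% of 9392 genes and none of the 10. Tox averaged 2.02 ± 0.561 after doxorubicin and 1.35 ± 0.385 untreated (log2 difference 0.43 ± 0.27, edgeR adjusted p = 0.75). Eomes had 2, 0 and 103 UMIs in the treated libraries (CD45 replicates 1 and 2, CD4/8 sort) and 9, 2 and 21 in the untreated ones, a log2 difference of 1.71 ± 0.65 (adjusted p = 0.46). Without CD45 doxorubicin replicate 2, which had 0, the value was 2.15 (adjusted p = 0.041). The difference between the CD8 and the CD4 effect was called for none of 10834 genes (0% of genes; 286 at an unadjusted p under 0.05, and 0 by DESeq2). For Eomes that interaction was -2.09 ± 0.80 (adjusted p = 1).

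The CD4/8-sorted pair alone, 2457 treated and 1497 untreated CD8 cells, gave larger differences, which have no replicate check. A gene was counted past the fold where the ratio was at least 1.5 either way and its mean level at least 0.2 per 10000; 11.1% of 4755 genes were, 8.75% higher. Of the 7 studied genes at that level 3 were past the fold, all higher. Tox was at 1.30 after doxorubicin and 0.625 untreated, a ratio of 2.07 (1.94 to 2.22, exact binomial 95% interval, counting error only). Id2 had a ratio of 1.60 (1.55 to 1.65) and Tbx21 of 1.54 (1.36 to 1.75). With library totals rescaled by the TMM method, Tox stayed past the fold at 1.82, while Id2 was at 1.40 and Tbx21 at 1.35. Id2 was also inside the fold with no UMI of another lineage allowed (1.45), and Tbx21 at 2000 UMIs per cell (1.30). That rescaling shifted the median log2 ratio of all genes by -0.19 and turned the split of genes past the fold, 416 higher and 110 lower, into 152 and 335. The early genes had ratios near 1: 1.10 for Tcf7 (1.02 to 1.20; 0.97 with TMM totals), 0.94 for Lef1 and 1.02 for Id3 (0.89 with TMM totals). All 7 cell-division genes at the level floor were past the fold and lower, with a median ratio of 0.56, against 1.06 over all genes.

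With all UMIs, the Tox ratio was as large on each side of Pdcd1 detection, a split made after the values were seen. In Pdcd1-detected CD8 cells Tox was at 2.03 after doxorubicin and 1.02 untreated, a ratio of 1.98 (1.81 to 2.17; 11.9% of genes past the fold). In Pdcd1-undetected cells it was at 0.759 and 0.393, a ratio of 1.93 (1.72 to 2.16; 13.6% past the fold). The share of CD8 cells with a Pdcd1 UMI was 35.3% after doxorubicin and 32.2% untreated. At 2000 UMIs per cell Pdcd1 was found in 414 of 2434 treated and 201 of 1488 untreated CD8 cells. The doxorubicin library was the shallower one, with a median of 6629 UMIs per CD8 cell against 10134, and held 1601 epithelial-gated cells against 444. At 2000 UMIs per cell the ratio over all CD8 cells was 2.13, and with no UMI of another lineage allowed it was 2.16.

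In CD4 cells of that pair 13.1% of 5227 genes were past the fold, with 488 higher and 198 lower (285 and 339 after TMM rescaling, a shift of -0.12 in the median log2 ratio). Of the 7 studied genes at the level floor 3 were past it. Tox was at 2.35 after doxorubicin and 1.21 untreated (ratio 1.94, 1.74 to 2.16). Tbx21 had a ratio of 1.57 (1.25 to 1.98) and Lef1 of 0.51 (0.39 to 0.67). The share of CD4 cells with a Foxp3 UMI was 9.5% after doxorubicin and 28.4% untreated. Among Foxp3-undetected CD4 cells alone the ratios were 1.91 for Tox, 1.25 for Tbx21 and 0.36 for Lef1. The Tbx21 ratio also fell under the fold with TMM totals (1.45), whereas Tox and Lef1 kept to their side.

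The IgG library, taken after the antibody course, was set against the 48 h doxorubicin library. These libraries differ both in IgG dosing and in time since doxorubicin, and the parts of each cannot be told apart. In CD8 cells 3.72% of 4842 genes were past the fold, 95 higher and 85 lower (143 and 57 after TMM rescaling). Of 9 studied genes at the level floor 1 was, against 1.76% of genes past the fold and lower. That gene was Id3, at 0.198 after IgG and 0.358 at 48 h, a ratio of 0.55 (0.49 to 0.62). Prdm1, under the level floor, was at 0.191 and 0.108, a ratio of 1.78 (1.51 to 2.10), and Id2 had a ratio of 1.44 (1.41 to 1.48), which passed the fold with TMM totals (1.53). Tox stood at a ratio of 0.80 (0.76 to 0.84). Of 10 effector genes 6 were past the fold and higher, with a median ratio of 1.65 against 0.97 over all genes; Gzma was at 2.78 (2.72 to 2.84). In CD4 cells 11.8% of 5231 genes were past the fold, 206 higher and 411 lower (239 and 308 after TMM rescaling). Tox (0.62, 0.55 to 0.70) and Tbx21 (0.54, 0.40 to 0.72) were lower after IgG and Slamf6 was higher (1.69, 1.33 to 2.17), 3 of 7 at the level floor. With 2 or more Cd4 UMIs required, Tox was at 0.76 and Slamf6 at 1.45. Foxp3 UMIs were found in 30.1% of CD4 cells after IgG and 9.5% at 48 h, and among Foxp3-undetected cells alone the 3 ratios were 0.64, 0.63 and 1.64.

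The 3 blockade groups were each set against that IgG library. They share it, so their ratios are given side by side and their likeness is no separate result. In CD8 cells Eomes was past the fold and lower in each: 0.56 after anti-PD1 (0.50 to 0.62), 0.60 after anti-CTLA4 (0.55 to 0.65) and 0.58 after both (0.54 to 0.63). The share of all genes past the fold was 7.44, 5.19 and 4.54% in those comparisons, and the share past it and lower 4.57, 0.79 and 1.35%. Lef1 was lower by the same measure, at 0.66 (0.60 to 0.73), 0.64 (0.58 to 0.69) and 0.58 (0.53 to 0.63). Tcf7 was past the fold after anti-CTLA4, at 0.66 (0.61 to 0.72), with 0.70 after anti-PD1 and 0.77 after both; the anti-CTLA4 ratio was inside the fold at 2000 UMIs per cell (0.81) and with no UMI of another lineage allowed (0.73). Lef1 at 2000 UMIs was at 0.63, 0.70 and 0.71 in that order, inside the fold for the groups that received anti-CTLA4, and without UMIs of other lineages it was inside it after anti-PD1 (0.70). Eomes stayed past it, at 0.57, 0.63 and 0.62. In the anti-CTLA4 comparison TMM rescaling shifted the median log2 ratio by -0.16 and changed the split of genes past the fold from 217 higher and 39 lower to 101 and 92; Eomes, Lef1 and Tcf7 were then at 0.54, 0.57 and 0.59.

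Tox in CD8 cells was past the fold after anti-PD1 and not in the other blockade groups; the difference between those groups has no test. It was at 0.599 after anti-PD1 and 1.04 after IgG, a ratio of 0.58 (0.54 to 0.62), with 1.06 after anti-CTLA4 (0.95 with TMM totals) and 1.07 after both. Bach2, under the level floor in this comparison, had a ratio of 0.45 (0.38 to 0.54) after anti-PD1. Id2 was at 0.86, 1.18 and 1.18 after anti-PD1, anti-CTLA4 and both, and Prdm1 at 0.78, 1.31 and 1.24, none past the fold. Among the 15 other fate factors at the level floor 4 were past the fold and lower after anti-PD1 and none higher, among them Nr4a2 (0.48, 0.47 to 0.50). The exhaustion receptor transcript Pdcd1 was at 0.79 after anti-PD1, 1.57 after anti-CTLA4 and 1.78 after both, and the share of CD8 cells with a Pdcd1 UMI was 35.9, 62.5 and 68.5%, against 46.6% after IgG. At 2000 UMIs per cell Pdcd1 was found in 285 of 1912, 628 of 2126 and 758 of 2332 cells, against 469 of 2187. The anti-PD1 library was the shallowest of the 4, with a median of 6223 UMIs per CD8 cell against 9237.5 to 10357 in the other 3, and it held 1543 epithelial-gated cells against 105 to 247. At 2000 UMIs per cell the Tox ratio was 0.57, and with no UMI of another lineage allowed 0.57; the part of other differences between these libraries was not tested.

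The ratios were also split by Pdcd1 detection, again chosen after the values were seen, and for several genes they depended on depth. With all UMIs, Pdcd1-undetected CD8 cells after anti-PD1 had Tcf7 at 0.56 (0.50 to 0.63), Lef1 at 0.54, Eomes at 0.49, Bach2 at 0.35 and Tox at 0.82 of the IgG level (10.2% of genes past the fold). With cells thinned to 2000 UMIs and Pdcd1 detection taken again, these were 0.61, 0.55, 0.49, 0.52 and 0.62, so Tox was then past the fold (10.8% of genes). In Pdcd1-detected cells after anti-PD1 Tox was at 0.51 (0.46 to 0.56; 11.3% of genes past the fold), and at 0.55 (0.40 to 0.74) at 2000 UMIs, where 23.4% of genes were past it. Id2 on that side was at 0.70, and at 0.75 at 2000 UMIs. Tox was thus lower than after IgG on both sides at each depth, inside the fold only in undetected cells with all UMIs.

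The other genes rest on few UMIs in thinned Pdcd1-detected cells, and no direction is read for them there. After anti-PD1 Eomes was at 0.68 with all UMIs but 1.37 (0.72 to 2.59) at 2000 UMIs, and Prdm1 at 0.67 but 0.94 (0.48 to 1.80). Tcf7, with 11 UMIs after anti-PD1 and 12 after IgG at that depth, was at 1.10 and then 1.51 (0.60 to 3.73). Its ratio in detected cells after anti-CTLA4 was 0.71 with all UMIs and 1.24 (0.58 to 2.79) at 2000, and after both antibodies 0.96 and 1.91 (0.97 to 4.02). In undetected cells Tcf7 was at 0.96 and 0.84 after anti-CTLA4, and at 1.12 and 0.97 after both, with all UMIs and at 2000. Eomes in detected cells was at 0.62 with all UMIs after anti-CTLA4 and after both, but at 1.15 (0.67 to 2.01) and 0.85 (0.49 to 1.5) at 2000. In undetected cells it was at 0.79 and 0.81 with all UMIs, and at 0.59 and 0.64, past the fold, at 2000. Which side of the split held the lower Eomes level in those groups therefore changed with depth. After anti-CTLA4 3.53% of genes in detected and 5.61% in undetected cells were past the fold with all UMIs, and 3.97 and 5.01% after both; at 2000 UMIs these were 12.7, 8.39, 11.8 and 6.33%.

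**Figure D5:**
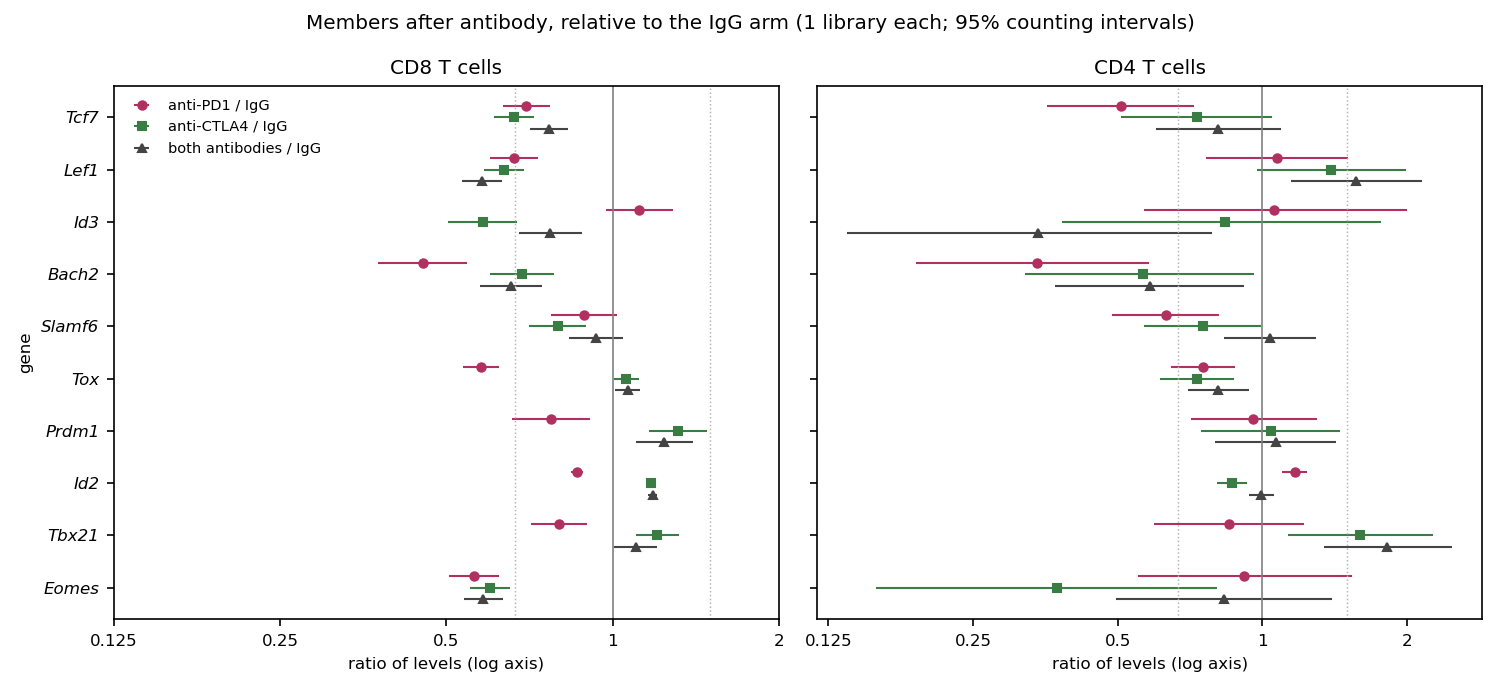
Ratio of each gene's level in a blockade library to the IgG library, in CD8 cells (left) and CD4 cells (right), on a log axis with exact binomial 95% intervals for counting error; dotted lines mark a 1.5-fold difference. In CD8 cells Eomes and Lef1 lie left of 1 in all 3 groups, and Tox does so for anti-PD1 (0.58) but not for anti-CTLA4 (1.06) or both (1.07).

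In CD4 cells the blockade ratios rested on fewer cells, 440 after anti-PD1, 171 after anti-CTLA4 and 277 after both, against 269 after IgG. After anti-PD1 9.59% of genes were past the fold, 4.85% lower, and Tcf7 (0.51, 0.36 to 0.72) and Slamf6 (0.63, 0.49 to 0.81) were lower, 2 of 7 studied genes at the level floor; at 2000 UMIs per cell they were at 0.32 and 0.37, and with 2 Cd4 UMIs required Slamf6 was at 0.77. After anti-CTLA4 11.7% were past the fold (7.34% higher), 377 higher and 223 lower (293 and 265 after TMM rescaling), and Tbx21 was higher (1.60, 1.13 to 2.26). After both antibodies 8.18% were, 3.7% higher, with Tbx21 (1.82, 1.35 to 2.48) and Lef1 (1.57, 1.15 to 2.15) higher. The share of CD4 cells with a Foxp3 UMI was 23.9% after anti-PD1, 4.09% after anti-CTLA4 and 13.4% after both, against 30.1% after IgG. Tbx21 was among the genes lower in Foxp3-detected cells, a call lost at 2000 UMIs or with no UMI of another lineage allowed. The part of the Foxp3 share in the Tbx21 ratios was not tested. In Foxp3-undetected CD4 cells alone the Tbx21 ratio was 1.42 after anti-CTLA4 and 1.69 after both, and the Lef1 ratio after both was 1.43. At 2000 UMIs per cell the ratios after both were 1.44 for Tbx21 and 2.49 for Lef1.

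A pooled table of unsorted cells, for which the labels give 1 doxorubicin-treated and 1 untreated sample, has 4016 barcodes with no map from cells to samples and held 227 CD8 and 67 CD4 cells by the same gates. As one sample it gave Tox 1.15, Tcf7 0.833, Lef1 0.668 and Eomes 0.552 UMIs per 10000 in CD8 cells. All 4 lay inside the range of the sorted libraries. Id2, at 3.55, lay near the low end of that range, and Id3, at 0.428, above it. In CD4 cells Tcf7 at 1.23 and Lef1 at 0.917 were above every sorted library.

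Across the 20 CD8 and CD4 sums of the 10 libraries most of the genes grouped as in single cells, but Slamf6 did not. This is described with no test because each library gives 2 of the sums. The sums mix both lineages, and Tcf7 and Id3 were higher in CD8 cells but Prdm1 and Slamf6 in CD4 cells. The correlations, also those with other genes, therefore include the difference between lineages, and none was taken within a lineage. The Spearman correlation was 0.73 for Tcf7 with Id3, -0.77 for Id3 with Prdm1 and -0.74 for Tcf7 with Prdm1. Slamf6, found with Tcf7 in single CD8 cells and in single CD4 cells, was at -0.41 with Tcf7, -0.32 with Id3 and 0.57 with Prdm1. Among 5297 genes with a mean of 20 or more CPM (UMIs scaled to the library total), those most like Tcf7 were Rasa3 (0.90), Foxp1 (0.86) and Stk38 (0.82), and Stk38 also led for Bach2 (0.84). Prdm1 was most like Itpr1 and Msi2 (both 0.89) and Ece1 (0.87). For Tox the highest was C2cd4b (0.75), followed by Pbxip1 and Dynlt3 (both 0.72).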

How the data were processed

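Single-cell UMI counts of 10 sorted libraries were used as deposited. Per the file headers the authors made these count matrices with Cell Ranger 6.0.0, and per the labels' protocols from Chromium Single Cell 3′ libraries of magnetically sorted cells; the submitters' processing notes name mm10. The matrices carry no gene names here, so rows were named by the gene order of the deposited pooled count table; gene means per row correlated at 0.954 to 0.984 with that order and at 0.354 or less with shifted orders. The members and gene lists were chosen with earlier results of these data known.

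Barcodes needed at least 500 UMIs, at least 200 genes and a mitochondrial share below 20%, and were then gated on marker genes. No doublet caller was run. Counts were summed per library and gate (20 or more cells) and tested, two-sided, with edgeR 4.0.16 (TMM, filterByExpr, robust quasi-likelihood fit, Benjamini-Hochberg over all genes tested, called under 0.05), which was tested on simulated data; limma 3.58.1 and R 4.3.3 were used with it. All 10 members passed the filter on low counts in every main comparison. Comparisons of the 6 CD4/8-sorted libraries have 1 library a group and no test: ratios of UMIs per 10000 UMIs have exact binomial intervals, and levels exact Poisson intervals, which cover counting error only. Thinning drew 2000 UMIs per cell without replacement. Named beside the members are, by rule, the 3 list genes of the highest level per gate and, per member, the 3 genes of the highest rank correlation. The alternatives were DESeq2 1.42.0, no filter on low counts, stricter gates, thinning, TMM-scaled totals, the CD45 sort alone, a replicate block and each library left out in turn. For doxorubicin against untreated only the CD45-sorted libraries were left out in turn, and for the interaction none was. The bulk table has 12 value columns that match no sample's labels and was not used. The promoter windows came from RefSeq. Scripts ran in Python 3.11.15 with numpy 2.4.6, pandas 2.3.3, scipy 1.17.1 and matplotlib 3.10.9. A further marker gene of the co-detection step is not reported here.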

Additional observations from a re-analysis of the deposited data

Results flagged for a closer look

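The Lef1 ratio to the IgG library lay on opposite sides of 1 in CD8 and CD4 T cells in each of the 3 blockade groups. After anti-PD1 it was 0.66 in CD8 cells and 1.07 in CD4 cells, after anti-CTLA4 0.64 and 1.39, and after both antibodies 0.58 and 1.57. In CD4 cells the 95% counting interval included 1 after anti-PD1 (0.76 to 1.51) and after anti-CTLA4 (0.97 to 1.99). The difference between lineages was not tested, each group is 1 library, and the 3 comparisons share the IgG library, so they are not separate observations. The share of CD4 cells with a Foxp3 UMI was lower in each blockade library than in the IgG library. In Foxp3-undetected CD4 cells alone the Lef1 ratio was 1.43 after both antibodies but 0.85 after anti-PD1, on the same side of 1 as in CD8 cells. Over all CD4 cells the anti-PD1 ratio also fell below 1 in other settings. It was 0.97 with 2 or more Cd4 UMIs required and 0.96 with no UMI of another lineage allowed.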

How the results depend on the processing

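With 1 to 3 libraries a group, single-library ratios have no replicate check, and genes near 0.2 UMIs per 10000 rest on few UMIs. For doxorubicin against untreated CD8 cells edgeR called 3 genes; DESeq2 called 208, no filter on low counts 369, 2 Cd4 or Cd8 UMIs 9, 0 UMIs of other lineages 36, the CD45 sort alone 0, and leaving out one library 0 to 51. For CD4 cells (21) the counts were 135 without the filter, 8 with 2 UMIs, 10 with 0 UMIs of other lineages, 8 in the CD45 sort alone and 0 to 140 with one library left out. Only CD45-sorted libraries were left out here. Without either CD4/8-sorted library the other would be the only one of its sort, and no such fit was run. The replicate numbers of the CD45 libraries gave a correlation of deviations of 0.29 in CD8 and 0.0074 in CD4 cells over 2 pairs. The labels do not say whether libraries of the same number share a batch, and these values do not settle it. The main fit held no replicate block, and with such a block 225 and 87 genes were called in CD8 and CD4 cells. The interaction (0) gave 30 without the filter, among them Eomes (-2.06, edgeR adjusted p = 0.0012), and 1 with 0 UMIs of other lineages.

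At 2000 UMIs per cell CD8 against CD4 gave 2174 calls (3826 before), Foxp3 560 (1798), Pdcd1 in CD8 cells 1055 (5155) and in CD4 cells 150 (1432). DESeq2 gave 1190 for Foxp3 and 688 for Pdcd1 in CD4 cells, 0 UMIs of other lineages 940 and 877, and 2 UMIs 579 for the last. Genes past the fold at 2000 UMIs numbered 273 (180) and 1136 (617) for IgG against 48 h in CD8 and CD4 cells, and in CD4 cells 1114 (492) after anti-PD1, 1444 (600) after anti-CTLA4 and 1098 (415) after both. Of 812 alternative edgeR values of the members 755 kept their side of the threshold, and 39 lost and 17 gained the call with the same sign. In 1 a call was involved and the sign turned, Prdm1 in the Pdcd1 comparison of CD4 cells at 2000 UMIs (-0.014). Changes of sign between values that were both not called are among the 755 and were not counted apart. Of 450 alternative ratios 81 moved beyond their counting interval, and 42 crossed 1, all of them of ratios not counted past the fold. Among these was Bach2 in CD4 cells after anti-CTLA4, not counted because of the level floor. Its ratio to IgG was 0.56, and 1.46 at 2000 UMIs per cell. Of 545 odds ratios 55 moved by more than the spread over libraries, and 55 crossed 1, 10 of them of pairs on 1 side in all 6 libraries. The cause was not tested.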
